A study of Mus musculus with 88 samples.

Results

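The transcripts of respiratory complexes III, IV and V, with cytochrome c, were followed through 6 tissues of the irradiated nude mouse. The members were all probes of the array whose gene symbol starts with Uqcr, Cox4, Cox5, Cox6, Cox7, Cox8 or Atp5, together with Cyc1 and Cycs. This rule takes 51 probes for 44 genes out of 25697 probes for 16593 gene symbols: 10 probes for 9 genes of complex III, 2 probes for the cytochrome c gene Cycs, 21 probes for 18 genes of complex IV and 18 probes for 16 genes of complex V. No measured value entered the rule. A probe was analysed in a tissue when its detection p was under 0.01 on at least 3 arrays of that tissue, which 46 member probes (40 genes) met in at least 1 tissue and 39 met in all 6. The 5 probes that met it nowhere were those for Cox7b2, Cox8c, Uqcrfs1, Uqcrq and 1 of the 2 probes for Cox6b2.

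RNA came from the thyroid, spleen, lungs and liver and from the medulla and cortex of the kidney of 14 mice. All were BALB/c nude females of the strain CAnN.Cg-Foxn1nu/Crl, about 4 months old, which lack a functional Foxn1 gene and so most T lymphocytes. Group A (3 mice) received 2 Gy of photons to the thyroid region, labelled collum. Group B (3 mice) received it to the thorax and abdomen, labelled as non-thyroid tissues, and group C (3 mice) to both. The 5 controls were sham-irradiated, all mice were anaesthetized, and all were killed after 24 h. The kidneys, liver, lungs and spleen thus lay outside the field in group A, and the thyroid outside it in group B. The tissues of a mouse share its group and number, while no source says that the mice of different groups with 1 number were paired. All values are log2 intensities, and n counts mice.

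Complex III passes electrons from reduced ubiquinone to cytochrome c, the small mobile carrier that Cycs encodes, and complex IV, cytochrome c oxidase, passes them on to oxygen. Both pump protons across the inner mitochondrial membrane, and complex V, the ATP synthase, lets the protons back to make ATP. The catalytic core of complex IV is encoded in the mitochondrial genome and is not among these probes, whereas the catalytic head of complex V (Atp5a1 and Atp5b) is nuclear and is. Several complex IV subunits exist as alternative forms: Cox6a2, Cox7a1 and Cox8b are known as the forms of heart and skeletal muscle (Cox7a1 and Cox8b also of brown fat), Cox6a1, Cox7a2 and Cox8a are the widespread forms, Cox4i2 is known as the lung form of Cox4i1, and Cox6b2 as a testis form of Cox6b1.

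The starts of the genes on which the results turn are shown first, for genes with a probe called in the irradiated kidney medulla (Cycs, Cox7b and Atp5e), for Atp5k, whose dim probe is described beside them, and for widespread and muscle forms of complex IV (Cox8a against Cox8b, and Cox7a2 against Cox7a1). Each run holds the 250 bases before the annotated start, from RefSeq on GRCm38.p6, 5′ to 3′ on the strand of the gene. They lie at chr6:50566570-50566819 (Cycs, minus strand), chrX:106015450-106015699 (Cox7b, plus), chr2:174464102-174464351 (Atp5e, minus), chr5:108434400-108434649 (Atp5k, minus), chr19:7217617-7217866 (Cox8a, minus), chr7:140900447-140900696 (Cox8b, minus), chr9:79759854-79760103 (Cox7a2, minus) and chr7:30183921-30184170 (Cox7a1, plus). Capitals mark matches to GCATGCGC (NRF1), TGACGTCA (CRE) and CCGGAAG (ETS) on either strand, and the capitals of Atp5k hold 2 overlapping NRF1 matches, 1 on each strand.
Cycs: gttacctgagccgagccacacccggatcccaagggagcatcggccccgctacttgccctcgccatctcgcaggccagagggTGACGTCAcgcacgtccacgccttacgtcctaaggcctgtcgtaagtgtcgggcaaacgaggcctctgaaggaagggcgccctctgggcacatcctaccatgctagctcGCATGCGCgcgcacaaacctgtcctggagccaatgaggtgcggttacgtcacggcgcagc
Cox7b: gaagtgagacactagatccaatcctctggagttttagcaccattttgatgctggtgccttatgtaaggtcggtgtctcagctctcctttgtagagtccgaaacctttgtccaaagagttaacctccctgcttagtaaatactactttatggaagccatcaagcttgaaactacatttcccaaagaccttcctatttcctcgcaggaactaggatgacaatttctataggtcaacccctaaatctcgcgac
Atp5e: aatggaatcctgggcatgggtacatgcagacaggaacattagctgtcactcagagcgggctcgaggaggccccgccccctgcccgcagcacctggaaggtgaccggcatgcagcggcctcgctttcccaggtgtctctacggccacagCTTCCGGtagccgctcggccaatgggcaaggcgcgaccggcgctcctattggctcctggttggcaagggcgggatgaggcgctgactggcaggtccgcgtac
Atp5k: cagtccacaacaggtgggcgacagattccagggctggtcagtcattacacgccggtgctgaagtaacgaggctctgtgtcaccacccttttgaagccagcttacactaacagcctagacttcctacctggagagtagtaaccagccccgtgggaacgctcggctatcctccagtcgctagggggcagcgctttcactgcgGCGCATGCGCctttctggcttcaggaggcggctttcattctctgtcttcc
Cox8a: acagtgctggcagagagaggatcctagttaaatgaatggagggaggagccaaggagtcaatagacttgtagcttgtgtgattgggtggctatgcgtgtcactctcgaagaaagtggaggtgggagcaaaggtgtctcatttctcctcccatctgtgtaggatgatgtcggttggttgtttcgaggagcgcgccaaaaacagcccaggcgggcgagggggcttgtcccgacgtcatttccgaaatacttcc
Cox8b: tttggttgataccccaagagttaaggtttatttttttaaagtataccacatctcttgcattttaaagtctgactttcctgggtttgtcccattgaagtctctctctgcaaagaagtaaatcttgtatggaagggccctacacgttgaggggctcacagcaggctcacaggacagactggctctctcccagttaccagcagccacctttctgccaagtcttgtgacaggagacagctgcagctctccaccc
Cox7a2: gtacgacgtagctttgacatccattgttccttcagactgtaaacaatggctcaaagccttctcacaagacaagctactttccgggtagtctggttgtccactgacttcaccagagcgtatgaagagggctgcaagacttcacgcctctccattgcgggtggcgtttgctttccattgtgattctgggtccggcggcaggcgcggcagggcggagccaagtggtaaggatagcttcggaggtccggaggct
Cox7a1: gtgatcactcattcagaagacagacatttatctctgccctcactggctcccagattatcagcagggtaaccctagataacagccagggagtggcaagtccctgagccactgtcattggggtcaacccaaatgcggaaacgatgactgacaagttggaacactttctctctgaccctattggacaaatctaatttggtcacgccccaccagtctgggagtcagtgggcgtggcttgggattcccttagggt

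A table of RefSeq starts held 36 such windows for 33 of the 44 member genes. NRF1 letters stood in 13.9% of the member windows and in 2.26% of all 32851 windows, ETS letters in 22.2% and 6.91%, and CRE letters in 5.56% and 1.55%. For AAGGTCA (ERR) the shares were 5.56% and 4.08%, for the MEF2 motif 2.78% and 3.2%, and for TATAAA 5.56% and 12.4%. The motifs were chosen after the sequences had been seen, the shares are a description, and no match says only that these letters are not in the window. Among the genes described in the medulla, Cycs held NRF1 and CRE letters, Atp5k NRF1 letters, Atp5e and 1 of the 2 windows of Atp5j ETS letters, and Cox7b none of the 6. The window of Cycs held 23 CpG dinucleotides, that of Atp5e 19, Cox7a2 14, Atp5k 13, Cox8a 11, Cox7b 5, Cox7a1 4 and Cox8b 1. The median over all windows was 6.

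Between 33.2% and 50.3% of the probes were detected on an array. Before the results, 3 sets of samples need to be named. First, the samples labelled thyroid carried skeletal muscle: 11 of 11 measured muscle markers were detected in controls, with a mean log2 level of 14.23 to 14.38 per mouse, while thyroglobulin (Tg), the defining marker of thyroid follicles, was 12.77, 4.61, 4.51, 14.65 and 4.53 in the 5 controls, that is near background in 3 of them. The sample labelled thyroid of group A replicate 2 had the muscle markers at 4.80 and Tg at 4.54, but 6 salivary gland genes at a mean of 11.74. That list was also high in group A replicate 1 (9.80) and control replicate 1 (10.24), against 5.56 to 6.18 in the other 4 controls and 5.78 in group A replicate 3. Second, group C replicate 3 lay nearer to the controls than to the other 8 irradiated mice in the kidney medulla (mean absolute distance of the members 0.19 against 0.34 log2 units), the liver (0.17 against 0.27) and the thyroid (0.18 against 0.28), but not in the lungs (0.42 against 0.36) or spleen (0.25 against 0.20). In the kidney cortex the distances hardly parted (0.29 against 0.31), and 22 of 45 members were nearer to the controls. It is called the mouse labelled group C replicate 3 below, and the medulla values are given with and without it. Last, the medulla sample of group B replicate 3 had 6 of 6 lung markers detected, with a mean of 9.67, against 4.64 to 4.93 in the other 13 medulla samples, whereas Cox4i2, the lung form, was at or below 5.06 in all 14.

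In the unirradiated mice, the levels of the 3 complexes were highest in the kidney and in the muscle-rich thyroid samples and lowest in the lungs. Over the 39 probes detected everywhere, the median control level was 13.58 in the kidney medulla, 13.46 in the kidney cortex, 13.35 in the thyroid, 12.74 in the liver, 12.55 in the spleen and 12.18 in the lungs, on a scale common to all arrays whose top is 15.04 and whose median over the probes detected in any tissue is 7.0. With each array scaled instead to the median of probes detected on all arrays, the order was thyroid (13.55), cortex (13.47), liver (13.40), medulla (13.37), spleen (12.20) and lungs (11.78), so that the medulla fell below the liver while the lungs stayed lowest. Of these probes, 25 were highest in the thyroid, 9 in the medulla and 5 in the cortex, and 25 were lowest in the lungs, 8 in the spleen, 3 in the liver and 3 in the thyroid. The order of the medians in each irradiated group kept the lungs lowest, and the thyroid of group A, at 12.83, was the only group median that lay more than 0.2 below that of its controls.

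**Figure D1:**
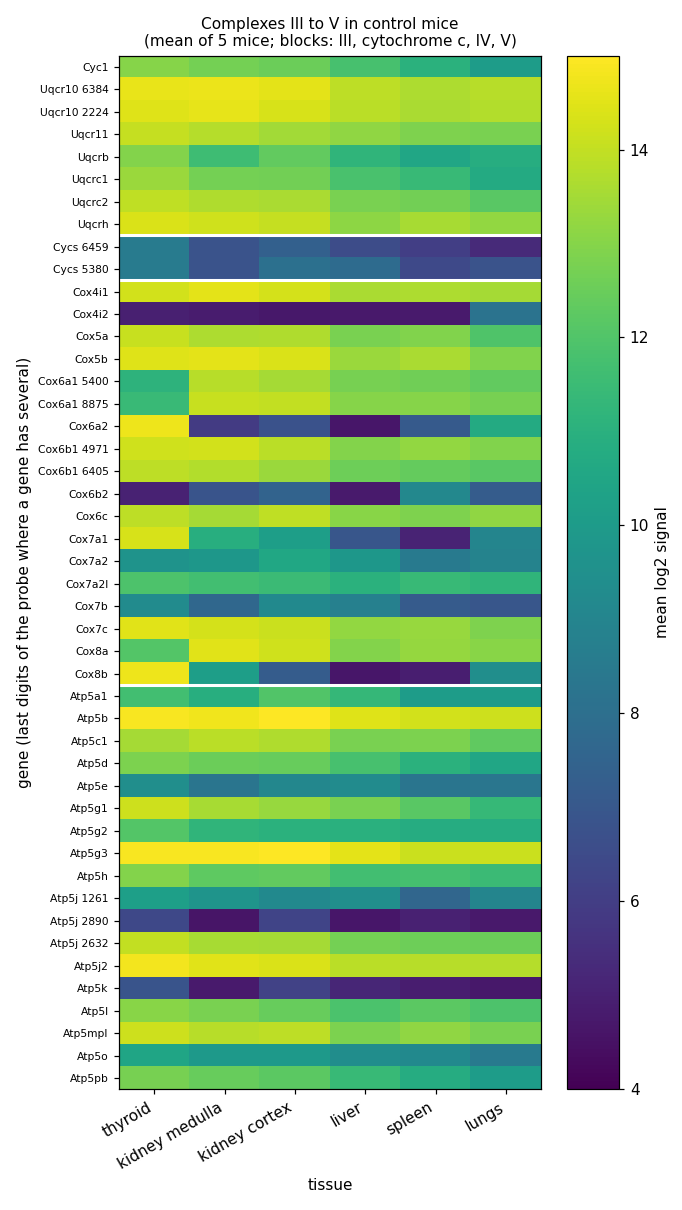
Control level of each detected member probe in 6 tissues, as the mean log2 intensity of 5 mice on the scale common to all arrays (colour), with probes in rows by complex and tissues in columns. Most rows are brightest in the kidney or thyroid and dimmest in the lungs, with Cox4i2 (lungs 8.17, elsewhere 4.69 to 4.96) as an exception, and probes in different rows are not to be compared with each other.

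Each tissue was compared with the mean of the other 5 with limma, over 15933 probes, and a probe was called when its adjusted p was under 0.01 and its log2 difference was 0.58 or more in size. In the thyroid 33 of 46 member probes were called higher and 4 lower (22% and 26.9% of all probes tested). In the kidney cortex 20 were called higher and 3 lower (17.2% and 19.2%), and in the kidney medulla 18 higher and 7 lower (16.4% and 19.1%). In the lungs 3 were called higher and 26 lower (22.2% and 24.2%), and in the spleen 1, Cox6b2, was called higher and 24 lower (28.4% and 28.7%). The liver held 2 called higher and 12 called lower (20% and 28.5%), but this direction turned with the scaling: with each array scaled to the median of probes detected on all arrays, 9 were called higher and 4 lower in the liver (22.1% and 23%), and the median member difference went from −0.42 to 0.31, while that of all probes went from −0.18 to 0.03. Without the thyroid samples, each tissue being set against the other 4, 27 members were called higher in the cortex (17.8% of all probes) and 27 in the medulla (17.5%), and 21 were called lower in the lungs (23.8%) and 12 in the spleen (27.9%).

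Among the pairs of tissues, 37 members were called higher in the kidney cortex than in the lungs and 3 lower (23% and 24.4% of all probes), and 34 were called higher in the medulla than in the lungs and 2 lower (22.4% and 24.4%). Against the liver, 31 members were called higher in the cortex and 0 lower (21.1% and 18.1%), which became 7 and 1 (18.4% and 26.5%) with the median scaling.

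For complex III, Cyc1, the cytochrome c1 that hands electrons to cytochrome c, ranged over 2.94 log2 units between tissues. Its control levels were 12.96, 13.15, 13.14, 12.42 and 13.31 in the thyroid, 12.45 to 12.81 in the medulla, and 10.12, 10.18, 10.07, 10.18 and 9.76 in the lungs. The groups of lungs and kidney did not overlap. The order was thyroid (13.00 ± 0.34, SD, n = 5), medulla (12.69 ± 0.15), cortex (12.55 ± 0.14), liver (11.80 ± 0.08), spleen (11.04 ± 0.33) and lungs (10.06 ± 0.17), in which the first 3 did not differ past the threshold and each later step did. Uqcrc1, a core subunit, had the same order, from 13.35 ± 0.28 in the thyroid to 10.74 ± 0.08 in the lungs. Uqcrb, the subunit that binds ubiquinone, spread widely within a tissue, with lung controls at 12.10, 11.25, 11.75, 9.60 and 9.62, and no step between neighbouring tissues in its order passed the threshold.

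Both probes for Cycs followed a similar order with the thyroid highest (8.57 ± 0.58 and 8.59 ± 0.74) and the lungs or spleen lowest. For probe ILMN_3155380 the cortex (8.04 ± 0.28) and liver (7.85 ± 0.21) came next, before the medulla (6.81 ± 0.44), the lungs (6.81 ± 0.21) and the spleen (6.42 ± 0.31). In complex V, Atp5g1, a gene for the membrane ring subunit c, ranged from 14.15 ± 0.25 in the thyroid to 11.38 ± 0.38 in the lungs. Atp5b, the catalytic beta subunit, lay between 14.14 and 14.97 in every tissue and so close to the top of the scale.

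The alternative forms of complex IV departed from this common order. Cox4i2 was 8.45, 8.10, 7.96, 8.17 and 8.16 in the lungs of the 5 controls and was detected on 0 control arrays of any other tissue, where its means were 4.69 to 4.96. The lungs were at least 4.02-fold (over the liver) to 6.48-fold (over the cortex) higher, where at least means the lung mean set against the higher of the dim group's own signal and the lowest detected signal of its arrays. Its counterpart Cox4i1 had its lowest level in the lungs (13.51 ± 0.26) and its highest in the medulla (14.57 ± 0.08).

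Cox6a2, Cox7a1 and Cox8b were highest in the thyroid samples, at 14.74 ± 0.08, 14.31 ± 0.29 and 14.74 ± 0.15. The liver had no detected signal for Cox6a2 and Cox8b, and the thyroid exceeded it at least 381-fold and at least 383-fold. In the same samples the widespread forms were at their lowest of all tissues: Cox8a was 12.45, 11.55, 11.50, 12.92 and 11.78 in the thyroid against 12.97 ± 0.12 in the liver and 14.51 ± 0.24 in the medulla, and Cox6a1 (ILMN_2605400) was 11.96, 10.42, 10.50, 11.74 and 10.90 against 13.80 ± 0.09 in the medulla. The remaining pair differed, since Cox7a2 was lower in the lungs (8.93 ± 0.36) and spleen (8.54 ± 0.34) than in the thyroid (9.66 ± 0.34). In the group A sample labelled thyroid that lacked muscle markers and carried salivary gland markers, Cox6a2 stood at 4.77, Cox8b at 9.35 and Cox7a1 at 10.87, with Cox8a at 13.58 and Cox6a1 at 12.97. Cox6a1 was also high in the thyroid samples of group C replicate 2 (14.39) and group B replicate 3 (13.48), which had the muscle markers at 13.77 and 14.32 and the highest levels of Ucp1, the uncoupling protein of brown fat, at 14.49 and 13.36. In bulk tissue, more cells of a type and more transcript per cell cannot be told apart.

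**Figure D2:**
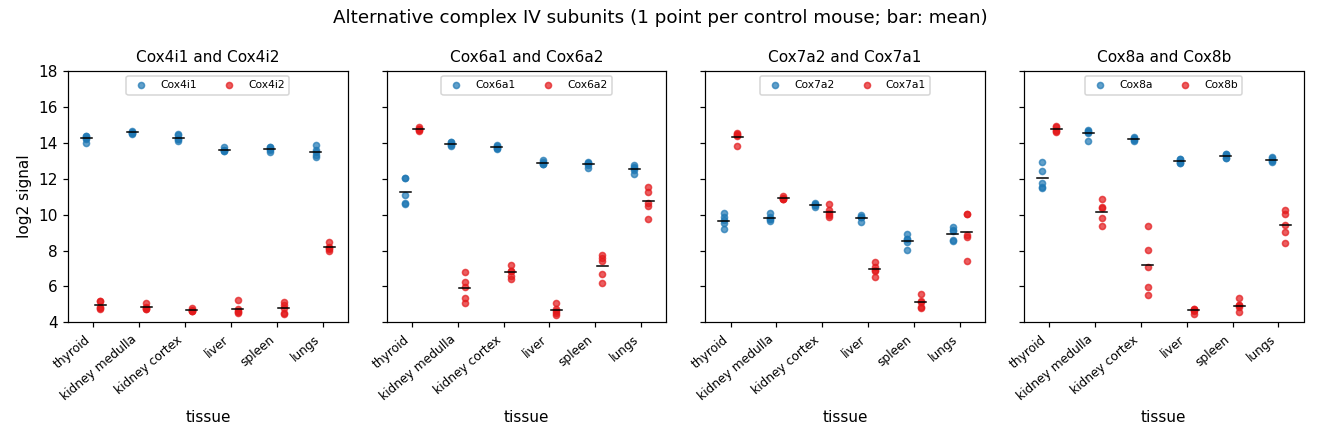
Log2 signal of alternative complex IV subunits in the controls of 6 tissues, with 1 point per mouse and a bar at the mean of 5 mice. The muscle forms Cox6a2, Cox7a1 and Cox8b peak in the thyroid samples, where Cox6a1 and Cox8a are lowest, and Cox4i2 is above background in the lungs; signals of different probes are not to be compared with each other.

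The muscle forms were also detected in tissues other than the thyroid samples. In the lungs, Cox6a2 was 10.48, 11.23, 9.77, 10.62 and 11.54 in the controls, beside heart markers whose list mean was 5.82 to 8.82 and of which 7 of 9 genes were detected on at least 1 control array. Over all 14 lung samples Cox6a2 ranged from 9.69 to 12.04 and the atrial myosin Myl7 from 4.57 to 11.69, and both extremes fell on the same mice, group B replicate 1 and group C replicate 1. The part of heart tissue in this was not tested. In the lungs of group A replicate 3 and group C replicate 3, Cox8b was highest (12.28 and 12.62) and Ucp1 was 10.12 and 10.72, against at most 4.79 in the other 12.

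In the kidney, Cox8b was 2.96 lower in the cortex than in the medulla of the controls on the log2 scale (SE 0.45, adjusted p = 1.9e-05). The cortex values were 8.04, 9.38, 5.53, 6.0 and 7.06 and the medulla values 9.34, 10.42, 10.89, 10.35 and 9.81, so that the highest cortex value lay just above the lowest medulla value. Skeletal muscle markers Acta1 and Ckm did not exceed 4.76 in any kidney sample. The brown fat list, of which 4 of 5 genes were detected in the medulla controls, had means of 8.92 and 8.57 in control replicates 3 and 4 against 7.16 to 7.31 in the other 3, and 6.74 to 7.40 in the cortex controls. Ucp1 was 9.39 and 8.0 in those 2 medulla samples and at most 4.83 in every other control sample of the kidney. The part of brown fat in this difference was not tested. Cox6b2 was highest in the spleen, at 9.26, 8.66, 8.97, 9.39 and 9.46, and at least 7.93-fold higher than in the liver, where it was detected on 0 of 5 arrays.

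In the controls 7 member probes were called higher in the cortex than in the medulla and 1 lower (4.98% and 2.92% of all probes). Among the 7 were Cox7b (1.57), Cycs (1.23), Atp5a1 (1.11), Atp5e (0.81) and Cox7a2 (0.73). The rest were a pair of dim probes without signal in the medulla controls, Atp5j (at least 1.57-fold) and Atp5k (at least 1.49-fold). Values without the word fold are log2 differences. The medulla controls enter both this comparison and the calls in the irradiated medulla, so the overlap of the calls is partly built in. Its share over all probes is not given here. In the 9 irradiated mice the 6 probes other than Cox7a2 differed by −0.43 to 0.10 between cortex and medulla, none called, and the 1 member called there was Cox6b2, 1.01 higher in the cortex (SE 0.25, adjusted p = 0.0020).

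In the kidney medulla a small set of probes for subunits of complexes IV and V and for cytochrome c read higher in irradiated mice than in controls. Most members did not. These calls did not hold in every fit: 0 members were called in groups A and B with the replicate number as a block. The same held with the position in the deposited table, which nearly coincides with irradiation, as a term. Cycs (ILMN_3155380) was 7.33, 6.27, 7.26, 7.26 and 7.17 in the controls, 8.94, 8.49 and 8.55 in the group A mice, 8.54, 8.74 and 8.46 in the group B mice and 8.58, 8.07 and 8.06 in the group C mice, on the scale of the medulla alone. All 9 irradiated mice lay above all 5 controls. The log2 ratio was 1.60 in group A (SE 0.22, adjusted p = 0.0036) and 1.52 in group B (adjusted p = 0.0037), both called, and 1.18 in group C (adjusted p = 0.020), which did not pass 0.01.

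Cox7b, a small subunit of complex IV, was 7.84, 7.63, 7.82, 8.08 and 8.12 in the controls, 9.58, 9.39 and 9.97 in the group A mice, 9.66, 9.66 and 9.53 in the group B mice and 9.95, 9.23 and 8.28 in the group C mice. Again no irradiated mouse overlapped the controls, and the mouse labelled group C replicate 3 came closest to them. The ratios were 1.75 (SE 0.27, adjusted p = 0.0036), 1.72 (adjusted p = 0.0041) and 1.26 (adjusted p = 0.029).

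Atp5a1, the alpha subunit beside the catalytic beta subunit of the ATP synthase head, was 11.03, 11.06, 10.95, 10.91 and 11.24 in the controls, 12.23, 12.30 and 12.09 in the group A mice, 12.09, 12.10 and 12.14 in the group B mice and 12.37, 12.17 and 11.35 in the group C mice. The groups did not overlap, and the ratios were 1.17 (SE 0.18, adjusted p = 0.0036), 1.07 (adjusted p = 0.0055) and 0.93 (adjusted p = 0.022). Atp5e, the epsilon subunit of the central stalk, was 8.40, 8.44, 8.44, 8.49 and 8.69 in the controls, 9.23, 9.25 and 9.35 in the group A mice, 9.49, 9.81 and 9.51 in the group B mice and 9.59, 9.14 and 8.59 in the group C mice. It was called in group B (1.11, adjusted p = 0.0044), but not in group A (0.78, adjusted p = 0.019) or group C (0.61, adjusted p = 0.064), where 1 mouse lay among the controls.

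The signals of a pair of dim probes lay at background in the controls. Atp5j (ILMN_2632890), for coupling factor 6 of the stator stalk, was detected on 0 of 5 control arrays, where it read 4.61, 4.80, 4.63, 4.52 and 4.62. It was 7.01, 6.29 and 6.78 in the group A mice, 6.50, 6.90 and 6.62 in the group B mice and 6.68, 6.19 and 4.43 in the group C mice, of which the last read like the controls. The signal was at least 1.85-fold higher in group A and at least 1.82-fold higher in group B. Since only irradiated arrays (8 of them) brought this probe past the detection filter, its p is given without any filter, where it missed 0.01 (adjusted p = 0.014 and 0.015). With the intensities normalized by the authors its log2 ratios were 0.73 and 0.71 (adjusted p = 0.0099 and 0.012), which is less than these bounds. Atp5k, a membrane subunit, was also detected on 0 of 5 control arrays (4.59 to 5.33) and on 8 irradiated ones. It read 6.27, 6.29 and 6.86 in the group A mice and 6.35, 6.54 and 6.37 in the group B mice (at least 1.58-fold and at least 1.53-fold, adjusted p = 0.038 and 0.043 without the filter), and 6.66, 5.82 and 4.50 in the group C mice.

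**Figure D3:**
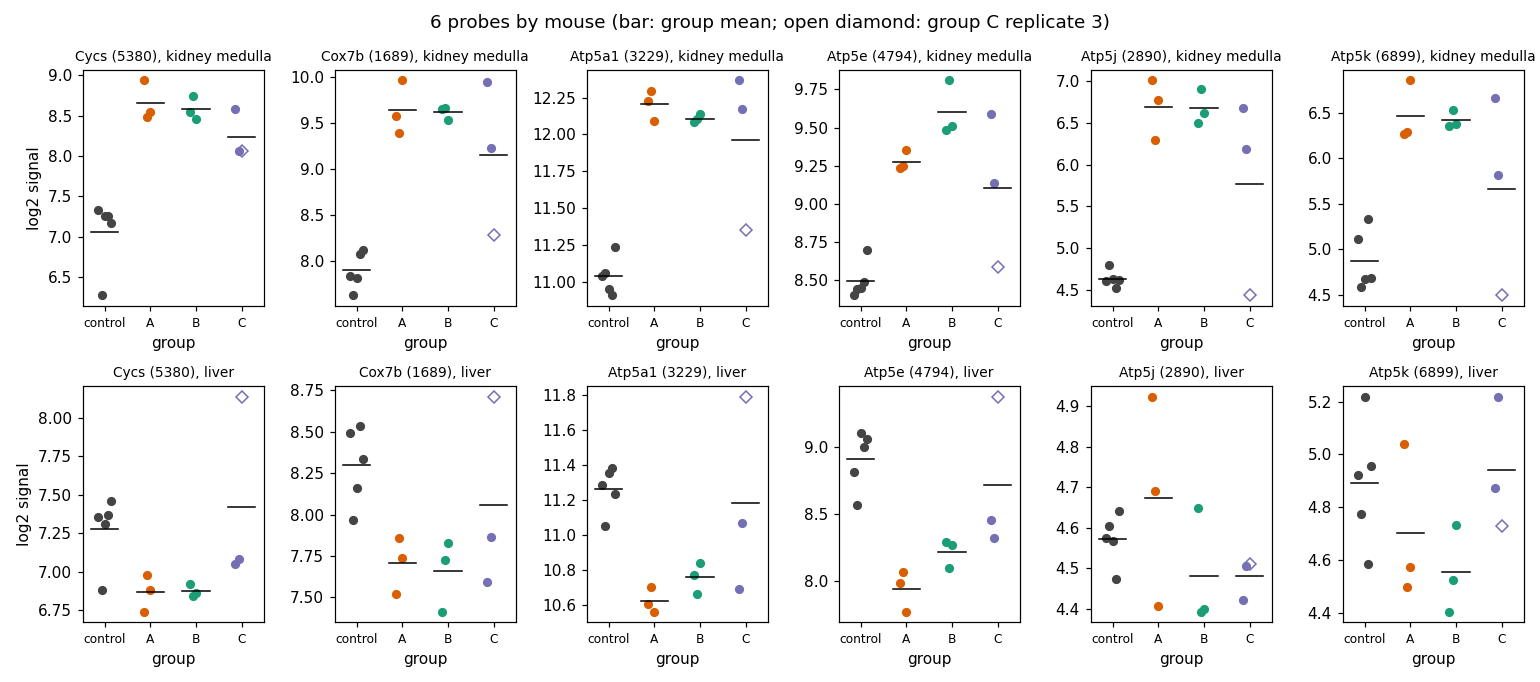
Log2 intensity of 6 member probes in the kidney medulla and the liver, by group, with 1 point per mouse and the group mean as a bar; the open diamond is group C replicate 3. In the medulla the points of groups A and B lie above all controls for Cycs, Cox7b, Atp5a1, Atp5e, Atp5j and Atp5k, and the diamond lies at or near the controls for all but Cycs.

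In all, 4 of 45 member probes were called higher in group A, 5 in group B and 0 in group C (3, 4 and 0 without Atp5j, which had to differ to pass the filter), and 0 were called lower in each (1.24%, 1.74% and 0.13% of the 12296 probes tested were called higher, and 0.155%, 0.0407% and 0% lower). At an unadjusted p under 0.05 15, 12 and 12 members differed, when 23.6%, 22.8% and 26.6% of all probes did. The median log2 ratio of the members was −0.03, 0.00 and −0.07, against −0.05, −0.05 and −0.02 over all probes tested, so that the complexes as a whole stayed close to the other transcripts. Complex III had no called probe. Cox6c had a ratio of 0.55 in group A (adjusted p = 0.021), and Cox7a1, the muscle form, ran the other way, at −0.45, −0.36 and −0.85, none called, with the lowest group C mouse at 9.57 and the controls at 10.97 to 11.17.

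Without the mouse labelled group C replicate 3 the same fit called 6 members in group A, 6 in group B and 7 in group C. That mouse was set apart by its likeness to the controls, so a rise in calls without it is partly built in. Each count holds the dim probes for Atp5j and Atp5k, which only irradiated arrays brought past the detection filter of the medulla. Group C then rests on its replicates 1 and 2. In group C the called members were Cox7b (1.70), Cycs (1.27), Atp5a1 (1.23) and Atp5e (0.87), all higher, the dim probes for Atp5j and Atp5k, and Cox7a1. The last fell by 1.25 (adjusted p = 0.00019). Calls over all probes rose as well, to 4.04%, 4.26% and 6.86%. Leaving out any 1 of the 3 mice of group A or of group B left 0 members called in that group, leaving out control replicate 1 or 2 left 1 in each, and leaving out control replicate 3 or 4 left 1 in group B. In the deposited table the medulla columns of group A, group B and group C replicates 1 and 2 stand first and those of group C replicate 3 and the controls last. With this position as a term, which nearly coincides with irradiation, 0 members were called, and the ratios in group A fell to 0.44 for Cox7b, 0.25 for Atp5a1, 0.06 for Atp5j, 0.01 for Atp5e and −0.15 for Atp5k, while that of Cycs was 1.34 (SE 0.44, adjusted p = 0.68). The sources do not say which arrays shared a chip, so its part was not tested.

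The kidney cortex markers in the medulla samples, a list of 6 genes with 6 detected, had means of 11.42 to 11.96 in the controls, 11.46 to 11.62 in group A, 11.27 to 11.67 in group B and 9.94 to 11.65 in group C. The list of 6 kidney medulla markers, of which 5 were detected, had means of 10.62 to 11.08 in the controls, 11.15 to 11.32 in group A, 10.98 to 11.20 in group B and 11.03 to 11.32 in group C. The part of the cut between cortex and medulla in the values above was not tested. On the scale common to all arrays, Cox7b was 7.66 ± 0.21 in the medulla controls, 9.46 ± 0.30 in group A, 9.44 ± 0.08 in group B and 9.23 ± 0.19 in the cortex controls, and Atp5a1 was 10.92 ± 0.13, 12.15 ± 0.11, 12.04 ± 0.03 and 12.03 ± 0.13 in the same samples. These comparisons share the medulla controls.

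In the kidney cortex, none of 45 members was called in any group (0% of all probes in each), while 7, 8 and 1 had an unadjusted p under 0.05 (7.76%, 13.9% and 8.6% of all probes). The probe with the smallest p was for Cox6b2, with a ratio of 0.65 in group B (adjusted p = 0.25) and one of 0.84 in group C (adjusted p = 0.40). Cox8b had a ratio of 1.99 in group C (SE 1.05, adjusted p = 0.62), where it was highest in replicates 2 (11.37) and 1 (10.18), whose Ucp1 levels were 10.55 and 8.85 against a median of 4.64 over the 14 cortex samples. The part of brown fat in this was not tested.

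The medulla response was compared with that of the cortex by the difference of their log2 ratios, in 1 fit over both tissues. In group A 5 members responded more in the medulla, namely Cox7b (2.06), Cycs (1.95), Atp5a1 (1.52), Cox6c (0.82) and Atp5j, which is given no value because it had no signal in the medulla controls. In group B 5 did, namely Cox7b (1.87), Cycs (1.84), Atp5a1 (1.37), Cox7a2 (0.93) and again Atp5j, and in group C 0 (2.62%, 2.83% and 0.00774% of 12920 probes). Without group C replicate 3, 5 did in group C, for which the share over all probes is not given here. The same comparison with the liver, which was chosen after the values had been seen, gave 6 members in group A, 6 in group B and 0 in group C (2.13%, 2.08% and 0.023%), with the largest differences for Cox7b (2.41 and 2.43). Of these, 5 and 4 remain when Atp5j and Atp5k are left out, which were detected on 0 liver arrays and 0 medulla control arrays and so compare background readings. Both tissues came from the same mice, and with the mouse as a block the counts fell from 6 and 6 to 3 and 2.

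In the liver itself 0 of 40 members were called (0%, 0% and 0.0188% of all probes in either direction), and at an unadjusted p under 0.05 there were 4 in group A, 4 in group B and 0 in group C (8.04%, 5.31% and 15.4%). The 4 were lower in both groups. Atp5e read 8.82, 8.57, 9.11, 9.0 and 9.06 in the controls, 7.98, 8.06 and 7.77 in the group A mice, 8.29, 8.09 and 8.26 in the group B mice and 8.45, 8.32 and 9.38 in the group C mice. Groups A and B lay below all controls, with a ratio of −0.97 in group A (SE 0.21, adjusted p = 0.18) and −0.69 in group B (adjusted p = 0.74), and group C replicate 3 lay above them. Atp5a1 had ratios of −0.64 and −0.50, and Cox7b −0.59 and −0.64.

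**Figure D4:**
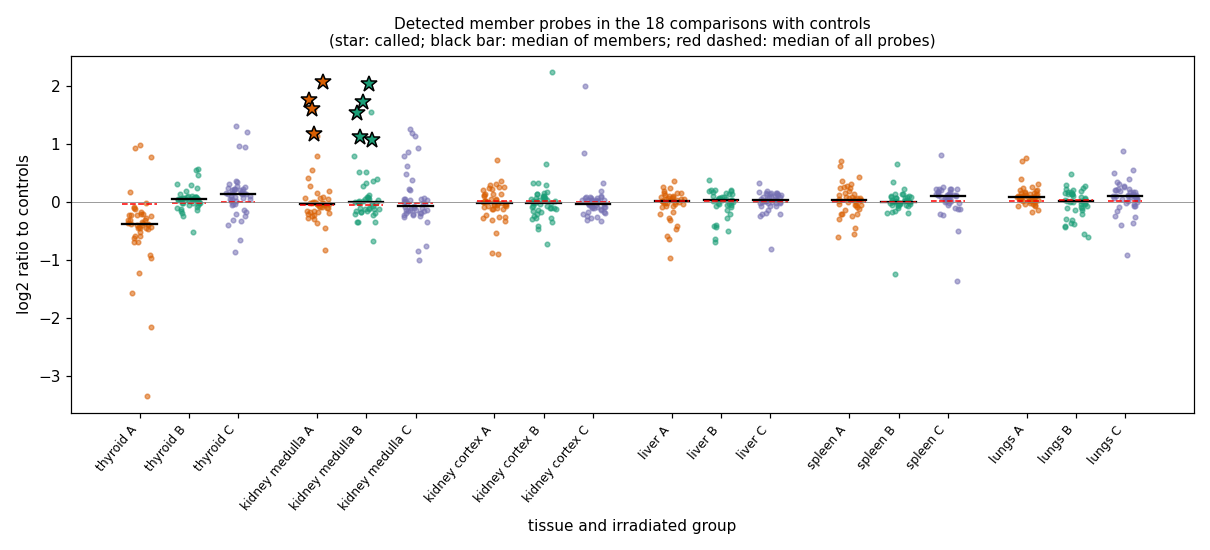
Log2 ratio of every detected member probe against controls, 1 point per probe, for 3 irradiated groups in 6 tissues, with stars for probes at an adjusted p under 0.01 and a ratio of at least 0.58. The 9 stars all lie in the medulla of groups A and B, above 1 (2 of them are the Atp5j probe whose control signal is at background), and the points of the group A thyroid lie mostly below 0.

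In the spleen 0 of 41 members were called (0.00822%, 0.0493% and 0.0658% of all probes in either direction), while 5, 1 and 2 had an unadjusted p under 0.05 (9.95%, 9.6% and 10.2% of all probes). Cox6a2 was lower, at −1.24 on the log2 scale in group B (SE 0.32, adjusted p = 0.24), and its ratio was −1.36 in group C (adjusted p = 0.12), whereas Cox6b2 was higher in group C (0.80, adjusted p = 0.13). Acta1, Ckm, Myl7 and Myh6 did not exceed 5.11 in any spleen sample. In the lungs 0 of 44 members were called (0%, 0.00749% and 0%), with 0, 2 and 1 at an unadjusted p under 0.05 (1.09%, 5.35% and 5.95%), and Uqcrh in group B had the smallest p (−0.61, adjusted p = 0.90).

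In the thyroid samples of group A most members lay below the controls, but none was called. In 2 of the 3, replicates 1 and 2, the salivary gland markers were high, as given above, and their part in the shift was not tested. The median ratio of the members was −0.38, against −0.05 over all probes, and 4 of 45 lay above 0 (46.5% of all probes did). Of the members, 0 were called (0% of all probes) and 4 had an unadjusted p under 0.05 (8.45%). The 4 above 0 were both probes for Cox6a1 and those for Cox8a and Cox6b2. The muscle forms had the largest negative ratios, −3.35 for Cox6a2, −2.16 for Cox8b and −1.56 for Cox7a1 (adjusted p = 0.50 in each), but without replicate 2 these were −0.09, −0.36 and −0.46. Cox6a2 read 14.22, 4.61 and 14.60 in the group A mice against a control mean of 14.49. The median of all members was −0.17 without replicate 2, the sample without muscle markers, −0.30 without replicate 1 and −0.68 without replicate 3. In groups B and C the medians were 0.04 and 0.14, with 0 members called (0% of all probes in both) or at an unadjusted p under 0.05 (0.889% and 1.35%). Between irradiated groups, 0 members were called in any of 18 comparisons, in which 0% to 0.0822% of all probes were called in either direction (0.00798%, 0.0188%, 0.074% and 0.0822% in the 4 that were above 0).

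For 6 genes the array had more than 1 probe, and those of Cycs parted in the medulla. For Atp5j, beside the probe with no control signal, the other 2 probes had ratios of −0.24 to 0.00 in the 3 groups. Their difference from ILMN_2632890 has only the bounds given above, and no test of it is reported. The second Cycs probe, ILMN_3076459, was 7.08, 6.94, 7.28, 7.19 and 6.89 in the controls, 7.42, 6.66 and 7.71 in the group A mice, 7.59, 7.46 and 7.16 in the group B mice and 7.04, 6.54 and 7.30 in the group C mice, so that its groups overlapped. Its ratio was lower than that of ILMN_3155380 by 1.42 in group A (SE 0.26, adjusted p = 0.0032), by 1.19 in group B (adjusted p = 0.0080) and by 1.30 in group C (adjusted p = 0.010), of which the first 2 were called. The pairs for Uqcr10, Cox6a1 and Cox6b1 differed by −0.21 to 0.17, and in the other tissues 0 member pairs were called. Among all genes with several probes, 3.73%, 4.6% and 1.28% of the pairs were called in groups A, B and C of the medulla, 0.0342% in group A of the spleen and 0% elsewhere. The positions of the probes in the transcripts were not used here.

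**Figure D5:**
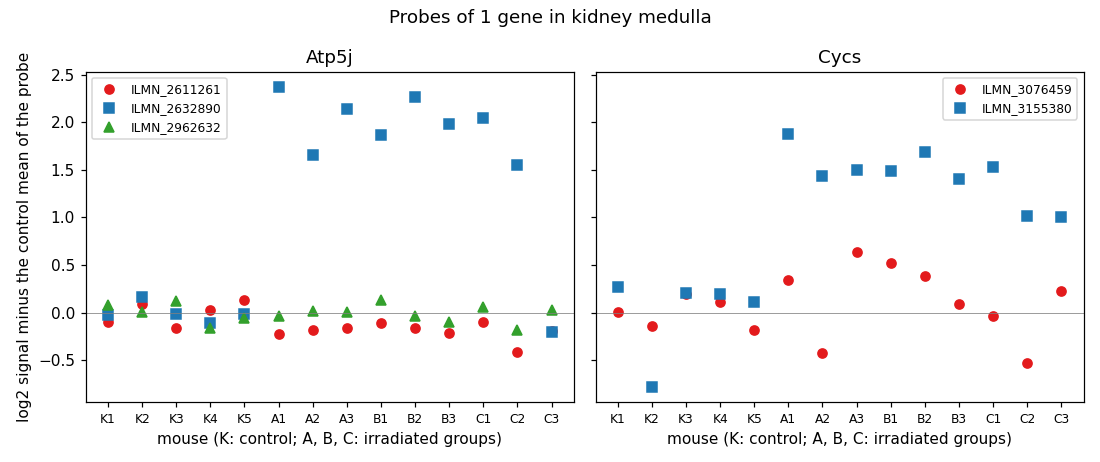
Log2 intensity minus the control mean in the kidney medulla for the 3 probes of Atp5j and the 2 probes of Cycs, with 1 point per mouse. ILMN_2632890 (Atp5j) and ILMN_3155380 (Cycs) lie above 1 in groups A and B, while the other probes of the same genes scatter about 0.

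Genes that serve the complexes without being part of them were taken from 3 lists. Of 40 assembly factors 28 genes (35 probes) could be tested in the medulla and 0 were called in any group. Cox11, which carries copper into complex IV, had a ratio of 0.89 in group A (adjusted p = 0.016), 0.88 in group B and 0.89 in group C. Of 16 regulators of transcription and of mitochondrial DNA 14 genes were tested and 0 called, with Gabpa, a subunit of the ETS factor known as NRF2, at 0.93 in group A (adjusted p = 0.015). Of 9 carriers of the substrates of complex V 6 genes were tested, and Slc25a3, which imports phosphate into mitochondria, was called in group A (0.60, adjusted p = 0.0061), with ratios of 0.41 and 0.45 in groups B and C. In the medulla 1.24%, 1.74% and 0.13% of all probes were called higher in groups A, B and C, and 0.155%, 0.0407% and 0% lower. In the other 5 tissues 0 genes of the 3 lists were called, when 0% to 0.0658% of all probes were. With so few probes in a list, these counts do not set the lists apart from other transcripts.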

How the data were processed

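The intensity of each probe without normalization stands in a deposited table, with a detection p-value per probe and array, for 88 Illumina MouseRef-8 v2 arrays of 14 mice. The authors also deposited intensities after quantile normalization. The sources used here do not say how the detection p-value was made. Signals were background-corrected with nec of limma 3.58.1 (R 4.3.3, offset 16), quantile-normalized within a tissue (over all arrays for comparisons of tissues) and taken to log2. Where a mouse had 3 arrays of a tissue (the thyroid of control replicate 5 and the liver of group A replicate 1), these were averaged. Groups were taken from the labels and fitted with lmFit and eBayes of limma over all probes detected in the tissue, with Benjamini-Hochberg adjustment, and regulation was called when the adjusted p was under 0.01 and the log2 ratio was 0.58 or more in size. For genes with several probes detected in a tissue, each dimmer probe was compared with the brightest, which gave 6 member pairs in the medulla. The 2 probes for Cox6b2 were not compared, since 1 of them was detected nowhere. Alternatives were the authors' values, no background correction, other scaling, no detection filter, the replicate block, other thresholds and leaving out each mouse. The block was a fixed term of the fit, which uses up degrees of freedom. The fits were tested on simulated data. Members, lists and named probes (the called probes, the alternative subunit forms and the 3 smallest p per comparison) were chosen with earlier results of these data known, and the joint fit with the liver, the column position, the fits without the thyroid samples and the motifs after values had been seen. Probe sequences and proteins were not used here. The authors formed the groups by similar body measurements, and no source says that mice were assigned at random. No source says either that mice of 1 group were housed or handled apart. The p-values of the group fits within a tissue measure the spread between these mice. The main fits over several tissues took the tissues of 1 mouse as separate samples.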

Additional observations from a re-analysis of the deposited data

Results flagged for a closer look

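In groups of 5 controls, 1 sample stood far from the other 4 in 5 of 42 groups examined, where chance gives about 1 in 20. The Cycs probe ILMN_3155380 of control replicate 2 read 6.27 in the kidney medulla and had a liver value of 6.88. In the thyroid, control replicate 4 read 13.80 for Cox7a1 and 5.90 for Cox6b2, and in the liver its median over the 39 probes detected in all tissues was 12.53.

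The log2 ratio against controls differed between the kidney medulla and the kidney cortex, tested as an interaction, for 4 measured probes in group A, namely Cox7b (2.06), Cycs (1.95), Atp5a1 (1.52) and Cox6c (0.82). In group B it differed for Cox7b (1.87), Cycs (1.84), Atp5a1 (1.37) and Cox7a2 (0.93). Against the liver the ratio of the medulla was larger in group A for Cox7b (2.41), Cycs (2.03), Atp5a1 (1.91), Atp5e (1.72) and Cox6c (1.01), and in group B for Cox7b (2.43), Cycs (1.94), Atp5e (1.81) and Atp5a1 (1.66). Both sets of differences use the same medulla samples and are not independent of each other. With the mouse as a block, the number of members that differed between medulla and liver fell from 6 to 3 in group A and from 6 to 2 in group B. Calls for Atp5j (ILMN_2632890) and Atp5k are left out of these lists, since they had no signal in the medulla controls.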

How the results depend on the processing

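Of 18 counts of regulated members, 14 stayed within 1.5 times the main count under all alternatives except the looser threshold. So did 18 of 18 counts between irradiated groups, 15 of 18 counts of disagreeing probes and 1 of 6 tissue counts. No probe called in the main fit changed its direction. Some uncalled ratios near 0 did (the second Cycs probe in group A went from 0.19 to −0.04 with 1 mouse left out). With the column position as a term, the uncalled ratios of Atp5k (from 1.59 to −0.15 in group A) and Cox7a1 (from −0.45 to 0.76 in group A) also did. The exceptions among regulated members were in the kidney medulla, where group B had 3 without the detection filter and the replicate block gave 0 in groups A and B, and in the spleen of group C, with 1 under the replicate block. An adjusted p under 0.05 gave 7, 8 and 3 members in groups A, B and C, when 865, 843 and 561 of 12296 probes passed it. The column position as a term gave 0 and 0 in groups A and B, with 0 called over all probes. Same-numbered samples of the medulla had correlations of −0.12 to 0.21 (median 0.04, against −0.02 for samples of other numbers). The lowest was under 0.1 in each tissue, and the highest was 0.68 in the thyroid and 0.49 in the spleen. With 3 mice in an irradiated group, these correlations cannot show whether replicate numbers pair the mice. Leaving out 1 mouse at a time gave 0 to 3 members in group A, 0 to 4 in group B and 0 to 7 in group C (7 without group C replicate 3, with Atp5j and Atp5k among them).

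Among tissues, scaling to the median of probes detected on all arrays changed the counts to 15 in the medulla and 38 in the spleen, a log2 difference of at least 1 gave 8 in the cortex, 8 in the medulla, 4 in the liver, 17 in the lungs and 10 in the spleen, and the spleen had 13 without the thyroid samples. For the difference between medulla and cortex an adjusted p under 0.05 gave 9, 9 and 1, and leaving out 1 mouse gave 1 to 6 in group A (1 without group A replicate 3), 2 to 5 in group B (2 without group B replicate 1, 3 without replicate 2) and 0 to 5 in group C (5 without its replicate 3). For the medulla and liver the mouse as a replicate block gave 3 and 2 in groups A and B, an adjusted p under 0.05 gave 4 in group C, and leaving out 1 mouse gave 3 to 5, 2 to 6 and 0 to 7 (3 without group A replicate 1 or 3, 2 without group B replicate 2, 7 without group C replicate 3). Disagreeing probes in the medulla, 2 in groups A and B with the Atp5j pair and 1 without it, numbered 1 in group C with the authors' values, without background correction and at an adjusted p under 0.05, and 0 in groups A and B with the replicate block. Leaving out 1 mouse gave 0 to 2, 0 to 1 and 0 to 2 of them, so that the 2 of group B were never both kept. The cause of these changes was not tested. Where no share over all probes is given in this section, a count does not set the members apart from other transcripts. The chip as a block was not run, since the sources do not name the chips. Signals near background, as for Atp5j (ILMN_2632890) and Atp5k in controls, bound a change from below only.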
